A study of Mus musculus with 2 samples.

Results

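Calmodulin, CaM kinase II (CaMKII) and calcineurin form the core of the calcium response of neurons, and 9 of their genes are described here out of 45578 genes in the table: Calm2 and Calm3 for calmodulin, Camk2a, Camk2b, Camk2d and Camk2g for the kinase, and Ppp3ca, Ppp3cb and Ppp3r1 for the phosphatase. They were chosen by name for their function, with earlier results of these data known. Each was represented by the transcript with the highest count summed over both libraries. The material was brain at postnatal day 5 from control mice of the Taiwanese spinal muscular atrophy strain on a congenic FVB background, with the genotype Smn+/-; SMN2tg/0. Every animal therefore lacked 1 functional Smn copy and carried the human SMN2 transgene, and no animal without these alleles was measured. The assay was RiboLace, in which beads with a puromycin analogue pull down ribosomes in the act of translation, and the protected messenger RNA fragments of 25 to 35 nucleotides are sequenced. The single group held 2 samples called biological replicates, with 343552 counts at the gene level in replicate 1 and 120282 in replicate 2.

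Calmodulin is a small protein with EF hands, the loops that bind calcium, and in its calcium-loaded form it wraps around and switches on many enzymes. CaMKII is a many-subunit kinase that calmodulin activates and that can then keep itself active by phosphorylating its own subunits, and it is best known for its part in the strengthening of synapses. Calcineurin is the phosphatase of the same pathway, built from a catalytic A subunit, which binds calmodulin, and a regulatory B subunit, which is itself an EF-hand protein. Ribosome footprints on a messenger RNA reflect how much protein is being made from it, and footprints per coding length allow such rates to be set side by side between genes.

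Calm2 and Calm3 together carried more footprints than the CaMKII and calcineurin genes of this set together. Together the 9 genes held 1177 counts in replicate 1, or 0.343% of that library (95% Wilson interval 0.324 to 0.363), and 391 counts in replicate 2, or 0.325% (0.294 to 0.359). Calm2 and Calm3 alone held 0.202% (0.188 to 0.218) and 0.204% (0.180 to 0.231). All 4 CaMKII genes held 0.0652% (0.0572 to 0.0743) and 0.0532% (0.0417 to 0.0679), and the 3 calcineurin genes 0.0754% (0.0668 to 0.0851) and 0.0682% (0.0549 to 0.0846). The intervals overlapped between the libraries for each of these groups. Intervals here and below cover counting error only. They may be too narrow even for that, since reads amplified by PCR and lacking molecular identifiers may be copies of 1 molecule. Abundance is given in CPM, scaled by TMM, on which 1 footprint counts for 2.71 in the deeper library and 8.93 in the shallower. In whole brain, fewer cells of a type and less RNA per cell cannot be told apart.

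Calm3 stood highest of the 9 genes, except per whole transcript length and with isoforms summed, where Calm2 did. Calm3 had 391 counts in replicate 1 and 141 in replicate 2 on a transcript of 2290 nucleotides with a coding sequence of 450, which is 2355 and 2798 CPM per 1000 coding nucleotides, or 2576 ± 313 (SD, n = 2). This level ranked 13 among the 4294 protein-coding genes that passed a mean of 10 counts and were represented by a transcript with a coding sequence. Calm2, with the same coding length in a transcript of 1205 nucleotides, had 303 and 104 counts, or 1825 and 2064 CPM per 1000 coding nucleotides, with a mean of 1944 ± 169 (SD, n = 2) and rank 30. Both calmodulin genes thus lay within the top 0.699% of coding genes on this scale, where the median gene stood at 62.3. Calm3 exceeded Calm2 in each library, by 1.29-fold in replicate 1 (95% counting interval 1.11 to 1.499) and 1.36-fold in replicate 2 (1.05 to 1.75). The genes code for the same protein through different nucleotide sequences, and fragments that match more than 1 of them could have been counted for each, so the split between them is uncertain.

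**Figure D1:**
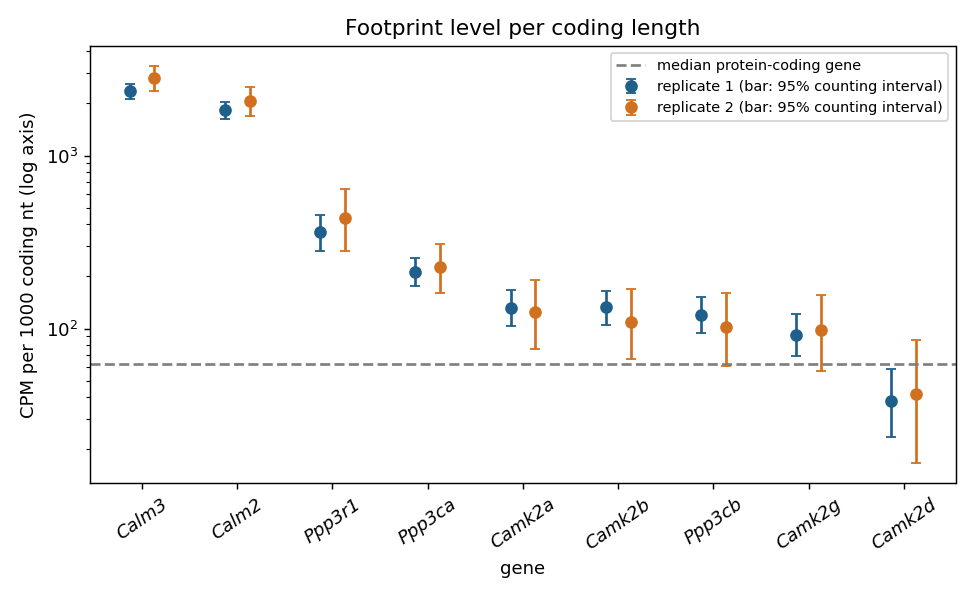
CPM per 1000 coding nucleotides (log axis) of the 9 genes, ordered by mean level, in replicate 1 (blue) and replicate 2 (orange), with exact Poisson 95% intervals as bars and the median of the protein-coding genes as a dashed line. Calm3 and Calm2 lie at 1825 to 2798, 8 of the 9 means lie above the median of 62.3, and Camk2d lies below it in both.

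Of the calcineurin genes, Ppp3r1 and Ppp3ca came next in level and Ppp3cb stood among the kinase genes. With isoforms summed, a setting that appears to count 1 fragment several times, Camk2b, at 639 CPM per 1000 coding nucleotides, lay above all 3. Ppp3r1, which codes for the regulatory B subunit, had 68 counts in replicate 1 and 25 in replicate 2 over a coding sequence of 513 nucleotides, or 359 and 435 CPM per 1000 coding nucleotides, with a mean of 397 ± 53.7 (SD, n = 2). Ppp3ca, which codes for the alpha form of the catalytic subunit, had 121 and 39 counts over 1536 coding nucleotides, or 213 and 227 CPM per 1000 coding nucleotides, with a mean of 220 ± 9.37 (SD, n = 2). Ppp3cb, for the beta form, had 70 and 18 counts over 1575 coding nucleotides, or 120 and 102 CPM per 1000 coding nucleotides, with a mean of 111 ± 13.0 (SD, n = 2). Ppp3ca was the higher of the catalytic genes in both libraries, by 1.77-fold in replicate 1 (95% counting interval 1.32 to 2.38) and 2.22-fold in replicate 2 (1.27 to 3.88).

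The holoenzyme pairs 1 catalytic with 1 regulatory subunit, and the footprint density of the catalytic genes was close to that of the regulatory gene. Ppp3ca and Ppp3cb summed to 334 CPM per 1000 coding nucleotides in replicate 1 and 329 in replicate 2. Divided by the level of Ppp3r1 this gave 0.930 in replicate 1 (95% counting interval 0.705 to 1.23) and 0.756 in replicate 2 (0.472 to 1.21). The mean was 0.843 ± 0.123 (SD, n = 2), and both intervals held 1. Ppp3cc, the gamma catalytic gene, had 10 and 1 counts, and with it the ratios were 0.979 (0.743 to 1.29) and 0.769 (0.481 to 1.23). The ratio depended on the length used: per whole transcript it was 1.76 and with the isoforms summed 1.65. The transcript of Ppp3r1 holds 2069 nucleotides of 3′ untranslated region beside its short coding sequence, and Ppp3ca and Ppp3cb have 8 transcripts each against 2. Ppp3r2, a further gene for a B subunit, had 0 counts in both libraries, which allows up to 15.1 and 49.6 CPM per 1000 coding nucleotides.

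Among the kinase genes Camk2a and Camk2b stood together per coding length, with Camk2g somewhat lower and Camk2d well below. The exact Poisson 95% intervals of Camk2g overlapped those of Camk2a and Camk2b in both libraries. Per whole transcript length Camk2g, at 40.25 CPM per 1000 nucleotides, was above Camk2a, at 37.1. Camk2a, the alpha subunit gene and a hallmark of mature excitatory forebrain neurons, had 70 counts in replicate 1 and 20 in replicate 2 over 1437 coding nucleotides, or 132 and 124 CPM per 1000 coding nucleotides, with a mean of 128 ± 5.46 (SD, n = 2). Camk2b, whose beta subunit binds actin filaments, had 80 and 20 counts over 1638 coding nucleotides, or 132 and 109 CPM per 1000 coding nucleotides, with a mean of 121 ± 16.5 (SD, n = 2). The order of this pair changed between the libraries. Camk2b over Camk2a was 1.00 in replicate 1 (95% counting interval 0.727 to 1.38) and 0.877 in replicate 2 (0.472 to 1.63), so a difference between them was not detectable at this depth.

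Camk2g, for the gamma subunit, had 53 counts in replicate 1 and 17 in replicate 2 over 1557 coding nucleotides, or 92.2 and 97.5 CPM per 1000 coding nucleotides, with a mean of 94.9 ± 3.71 (SD, n = 2). Camk2d, for the delta subunit, had 21 and 7 counts over 1500 coding nucleotides, or 37.9 and 41.7 CPM per 1000 coding nucleotides, with a mean of 39.8 ± 2.64 (SD, n = 2). It was the lowest of the 9 genes in both libraries and the only member under the median of coding genes, at rank 2852 of 4294. As shares of the summed density of the 4 genes, Camk2a held 33.4% ± 0.0653, Camk2b 31.4% ± 3.02, Camk2g 24.8% ± 1.98 and Camk2d 10.4% ± 1.11 (each SD, n = 2). Of the 224 raw counts on these genes in replicate 1, Camk2d held 9.38% (95% Wilson interval 6.21 to 13.9), and of the 64 in replicate 2 it held 10.9% (5.40 to 20.9). The share of Camk2d fell to 4.99% when each gene was represented by its isoform with the longest coding sequence, and summing isoforms put Camk2b at 54.9%, Camk2a at 17.2%, Camk2d at 16.7% and Camk2g at 11.2%. In that last setting Camk2d, at 196 CPM per 1000 coding nucleotides, was above Camk2g, at 130, and no longer the lowest of the 9.

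Set side by side, Calm2 and Calm3 together had 10.6 times the summed density of the CaMKII genes in replicate 1 (95% counting interval 9.11 to 12.3) and 13.1 times in replicate 2 (9.91 to 17.2). The mean ratio was 11.8 ± 1.74 (SD, n = 2), and its numerator holds these 2 genes only. Against the kinase and phosphatase genes together the ratio was 3.84 (3.39 to 4.36) and 4.28 (3.42 to 5.35) when Ppp3r1 was counted too. The kinase genes and the calcineurin catalytic genes had similar sums, at 395 and 372 against 334 and 329 CPM per 1000 coding nucleotides, and their ratio of 1.18 (0.974 to 1.43) and 1.13 (0.793 to 1.62) could not be told from 1. Summing isoforms lowered the first of these ratios to 4.44, a setting in which the 28 transcripts of Camk2d and the 15 of Camk2b are each counted.

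From highest to lowest mean level the order was Calm3, Calm2, Ppp3r1, Ppp3ca, Camk2a, Camk2b, Ppp3cb, Camk2g and Camk2d. The libraries gave the same order but for Camk2a and Camk2b. Of the 8 pairs of neighbours in this order, the exact Poisson 95% intervals were apart in both libraries only between Calm2 and Ppp3r1, which differed 5.08-fold and 4.74-fold. They were apart in replicate 1 alone between Calm3 and Calm2, Ppp3r1 and Ppp3ca, Ppp3ca and Camk2a, and Camk2g and Camk2d. Among Camk2a, Camk2b, Ppp3cb and Camk2g the intervals of neighbours overlapped in both libraries. Per whole transcript length Calm2, at 726 CPM per 1000 nucleotides, came out above Calm3, at 506, and with isoforms summed it stood at 2610 against 2533 CPM per 1000 coding nucleotides.

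The libraries gave like values for all 9 genes. Replicate 2 over replicate 1, as a ratio of CPM, ran from 0.824 for Camk2b to 1.21 for Ppp3r1. It was closest to 1 for Camk2g, at 1.06 (95% counting interval 0.574 to 1.85), Camk2a, at 0.941 (0.542 to 1.57), and Ppp3ca, at 1.06 (0.721 to 1.54). The narrowest interval was that of Calm3, at 1.19 (0.973 to 1.44), followed by Calm2, at 1.13 (0.896 to 1.42). The widest was that of Camk2d, at 1.10 (0.394 to 2.68), which spans more than a 2-fold difference in either direction.

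All 9 genes passed the count filter, and none was called by an exact binomial test with Benjamini-Hochberg adjustment over the 5436 genes tested, which compares the reads of the 2 libraries and not conditions. The lowest adjusted p of this exact test was 0.660, for Calm3, with a log2 ratio of 0.25 (counting SE 0.142), and 0 of the 9 genes had an unadjusted p under 0.05. Over all tested genes 4.14% were called, and over the protein-coding genes 0.956%, so a count of 0 in 9 is near the background. The edgeR negative binomial exact test with a preset coefficient of variation of 0.2 also called 0 of the 9, against 2.41% of all tested genes, and 0 had an unadjusted p under 0.05. Of the log2 ratios, 6 were above 0 and 3 below, with a median of 0.087 against 0.0041 for all tested genes. With scaling by library totals, which moved the median of all genes to -0.20, 2 were above 0 and 7 below. With the isoforms of each gene summed, Calm3 was called (log2 ratio 0.35, adjusted exact binomial p = 0.0129), a setting that appears to count 1 fragment several times. There 7.23% of 8366 genes tested were called, and 3 of the 9 members had an unadjusted p under 0.05.

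**Figure D2:**
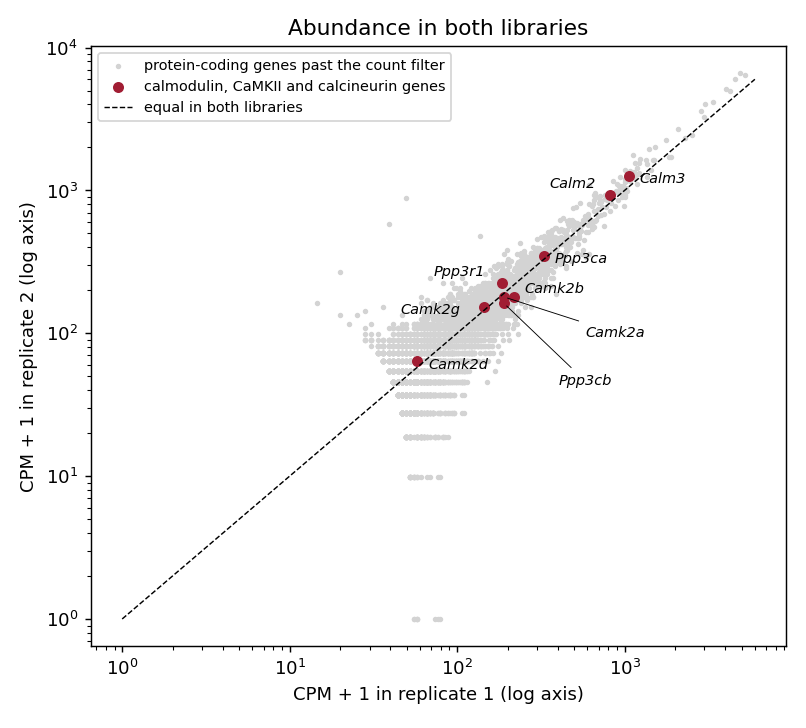
CPM + 1 in replicate 1 (horizontal, log axis) against replicate 2 (vertical, log axis) for the protein-coding genes past the count filter (grey) and the 9 calmodulin, CaMKII and calcineurin genes (red), with the line of equal values dashed. The 9 genes lie near the line, from Camk2d at 56.9 and 62.5 CPM to Calm3 at 1060 and 1259 CPM.

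The 9 genes have 78 transcripts in the table, of which 40 are protein coding, 22 keep an intron, 13 are processed transcripts without a coding sequence and 3 are marked for nonsense-mediated decay. Their counts are not separate measurements, because a fragment in a shared stretch appears to be counted for every isoform that holds it. Isoforms of 1 gene with very different untranslated regions had like counts. Camk2b-201, with 2156 nucleotides of 3′ untranslated region, had 80 and 20 counts in replicates 1 and 2, and Camk2b-011, with 1 such nucleotide and a coding sequence of 1557, had 75 and 23. Camk2a-001 and Camk2a-002, with 3372 and 1627 nucleotides of 3′ untranslated region, had 70 and 20 counts and 64 and 21 counts.

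Ppp3ca was less even between isoforms. Ppp3ca-001, with 3222 untranslated nucleotides in sum, had 121 and 39 counts, and Ppp3ca-002, with 628, had 116 and 24, which is 95.9% of the former in replicate 1 and 61.5% in replicate 2. On Ppp3ca-002 the log2 ratio of the gene between the libraries turned from 0.087 to -0.55, and neither value was called. The 9 Camk2b isoforms with at least 90% of the coding length of the one used ranged from 62 to 82 counts in replicate 1 and from 15 to 29 in replicate 2. The 8 such isoforms of Camk2d ranged from 12 to 21 and from 1 to 7. The isoform used is the highest in sum, so the summed counts of genes with many isoforms sit at the upper end of what their isoforms give. Levels per coding length need not, since coding lengths differ between isoforms. Camk2d stood at 16.7 CPM per 1000 coding nucleotides on its longest coding isoform and at 196 with its 28 transcripts summed.

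**Figure D3:**
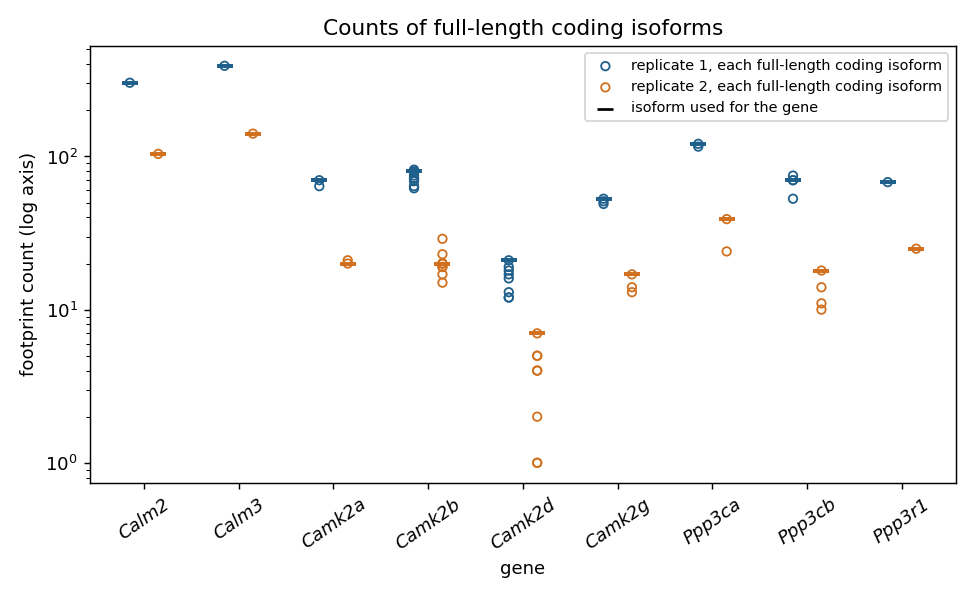
Footprint counts (log axis) of each protein-coding isoform with at least 90% of the coding length of the isoform used, by gene, in replicate 1 (blue circles) and replicate 2 (orange circles), with the isoform used marked by a bar. Calm2, Calm3 and Ppp3r1 have 1 such isoform, and the widest relative spread is that of Camk2d.

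Calmodulin transcripts without the full reading frame also had many counts. Calm2-002 and Calm2-003, which keep an intron, had 271 and 70 counts and 269 and 94 counts, against 303 and 104 on the coding Calm2-001. Calm3-004, a processed transcript of 482 nucleotides, had 244 and 94 counts, beside 391 and 141 on Calm3-001. Calm3-002, of 490 nucleotides with a partial coding sequence of 197, had 41 and 19. Which fragments these transcripts share, and counts per region or position, were not analysed here.

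The lengths and positions of the genes were described from the annotation, with no test. Their 3′ untranslated regions had a median of 2069 nucleotides, against 1075 over the 4294 coding genes, and 8 of the 9 were longer than that median, Calm2 at 615 being the exception. Their coding sequences ran from 450 to 1638 nucleotides, with a median of 1500 against 1398. Camk2g and Ppp3cb are near neighbours on 1 chromosome, with 8 protein-coding genes between them in the RefSeq annotation of GRCm38.p6, of which Chchd1, Sec24c and Zswim8 passed the count filter.

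Genes nearest to the members in level, by the distance of log2 CPM per 1000 coding nucleotides over the 2 libraries, came from many functions. Nearest to Calm3 were the tubulin gene Tubb5, which may share fragments with its paralogs, at 2265 and 3003, with a distance of 0.12, and the growth-cone gene Stmn2, at 2198 and 2679. Nearest to Calm2 were Ywhag, a 14-3-3 protein gene, at 1639 and 2088, and Cst3, at 1839 and 1816. For Ppp3r1 these were Aplp1 and Sub1, for Ppp3ca Wbp5 and Tmem258, and for Ppp3cb Tmed2 and Trim28. For Camk2a they were Rpl7a and Cct5, for Camk2b Ddx3x and Ppme1, for Camk2g Pa2g4 and Cat, and for Camk2d Cyp46a1 and Micu2. With 2 samples of 1 group this is likeness of level alone.

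Around the members, 65 genes of 6 lists cover calmodulin's stores, targets and relatives, and 39 of them passed the count filter. Of these 39 genes, 2 were called, both higher in replicate 2, and 5 had an unadjusted p under 0.05 in the exact binomial test. Over all 5436 genes tested the called share was 4.14%, with 217 of the 225 called genes higher in replicate 2, and 522 had an unadjusted p under 0.05. Over the 4392 protein-coding genes tested the called share was 0.956%, with 36 of the 42 called genes higher in replicate 2. Of these coding genes 247 had an unadjusted p under 0.05. The called genes were Marcks and Basp1, from the list of proteins that hold calmodulin at membranes or in the cytoplasm. Of these reservoir genes Nrgn, at 2260, and Basp1, at 2124, lay between Calm2, at 1944, and Calm3, at 2576. The rest were lower, down to 758 for Pcp4, and all 6 lay above the median of coding genes. Nrgn and Pcp4 have coding sequences of 237 and 189 nucleotides, so fragments outside them weigh heavily in their levels and in the ratio below. In mean CPM they stood at 536 and 143, below Calm2 at 875, while Marcks and Basp1, at 1442 and 1447, were above Calm3 at 1159. Nrgn, for neurogranin, which binds calcium-free calmodulin in dendrites, stood at 1807 and 2713 CPM per 1000 coding nucleotides and Basp1 at 1823 and 2426. Gap43, for the growth-cone protein that binds calmodulin in axons, had 1474 and 1749. The summed density of Calm2 and Calm3 was 0.499 of that of the 6 genes in replicate 1 (95% counting interval 0.455 to 0.547) and 0.443 in replicate 2 (0.381 to 0.516).

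Marcks had a log2 ratio of 0.66 (counting SE 0.125, adjusted exact binomial p = 1.25e-05) between the libraries and Basp1 one of 0.41 (SE 0.126, adjusted exact binomial p = 0.033). With the preset coefficient of variation of 0.2 neither was called (adjusted p = 1.0 for each in edgeR's exact test), and with library totals the adjusted exact binomial p was 0.0109 for Marcks and 0.625 for Basp1. The list's median was 0.33, against 0.0041 for all tested genes, while Calm2 and Calm3 had 0.18 and 0.25 and were not called.

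Per coding length, genes for inhibitors of CaMKII had higher levels than the kinase. Camk2n1 and Camk2n2, small proteins that block the active kinase, had 60 and 24 counts and 34 and 12 counts, or 795 ± 154 and 415 ± 44.2 CPM per 1000 coding nucleotides (SD, n = 2). Their sum was 2.71 times that of the CaMKII genes in replicate 1 (95% counting interval 2.13 to 3.45) and 3.63 times in replicate 2 (2.41 to 5.46). Both have very short coding sequences, of 237 and 240 nucleotides, so that fragments outside them weigh heavily in this measure. Mean CPM without division by length was 188 for Camk2n1, between Camk2a at 184 and Camk2b at 198. Camk2n2, at 99.6 CPM, was below both and below Camk2g, at 148, but above Camk2d, at 59.7. The transcripts of Camk2n1 and Camk2n2 hold 4444 and 1291 nucleotides, and the ratio per whole transcript was not computed. A higher level of the inhibitor genes is therefore shown per coding length only, and may not hold per whole transcript. Of the other 10 kinase and inhibitor genes of this list, 4 passed the filter. Over the whole list of 12 genes, 0 of the 6 tested were called, 0 had an unadjusted p under 0.05 in the exact binomial test, and the median log2 ratio was 0.079. Camkv, a kinase-like protein without activity, had 82 and 25 counts on a transcript without a coding sequence, so it has no level on this scale.

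Partners and targets of calcineurin had mean levels below those of Ppp3ca, Ppp3cb and Ppp3r1. Of 15 such genes 7 passed the filter, 0 were called, 1 had an unadjusted p under 0.05 in the exact binomial test, and the median log2 ratio was -0.17. The highest were Ppp1r1b, for the phosphatase inhibitor DARPP-32, at 102 ± 6.77 and Dnm1, for the endocytic GTPase dynamin, at 84.0 ± 21.5 CPM per 1000 coding nucleotides (SD, n = 2). In replicate 2 Ppp1r1b, at 107 (exact Poisson 95% interval 43.0 to 220), was above Ppp3cb, at 102 (60.5 to 161). With the longest coding isoform Ppp3cb had a mean of 94.9. Of the NFAT transcription factors, which calcineurin sends to the nucleus, Nfatc1, Nfatc2 and Nfatc3 had between 0 and 4 counts in each library, and Nfatc4 had 0 in both, which allows up to 3.04 and 10.02 CPM per 1000 coding nucleotides.

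Enzymes and pumps under calmodulin's control, and the postsynaptic partners of CaMKII, lay mostly below the median coding gene, with 3 of 12 and 0 of 8 genes above it. Of 12 enzyme and pump genes 7 were tested, 0 were called and 0 had an unadjusted p under 0.05 in the exact binomial test, with a median log2 ratio of 0.0081. The plasma membrane calcium pump gene Atp2b1 led them at 114 ± 0.456 and the phosphodiesterase gene Pde1b followed at 63.9 ± 11.7 CPM per 1000 coding nucleotides (SD, n = 2). Of 8 postsynaptic partner genes 5 were tested, 0 were called and 1 had an unadjusted p under 0.05, with a median log2 ratio of 0.074. Dlg4, for the scaffold PSD-95, at 61.9 ± 11.5, and Grin1, for the shared NMDA receptor subunit, at 49.9 ± 24.9 CPM per 1000 coding nucleotides (SD, n = 2), were the highest. Grin1 was also the gene with an unadjusted p under 0.05. All 8 had means below the median of 62.3. In single libraries Dlg4, at 70.1 in replicate 2, and Grin1, at 67.5 in replicate 1, lay above it.

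Other EF-hand calcium sensors had levels below those of the calmodulin genes. Of 12 genes 8 passed the filter, with a median log2 ratio of 0.015. Of these 8, 0 were called and 0 had an unadjusted p under 0.05 in the exact binomial test. The same 8 of the 12 lay above the median coding gene, and the 4 under the filter lay below it. The coding sequences of the 8, of 573 to 816 nucleotides, are short against the median of 1398. Passing the filter alone therefore largely puts them above the median level. Vsnl1, for a neuronal sensor of the visinin family, had 776 ± 0.811 and Ncs1 255 ± 79.9 CPM per 1000 coding nucleotides (SD, n = 2). Calml4, a calmodulin-like gene, had 0 counts in both libraries, which allows up to 17.6 and 58.0 CPM per 1000 coding nucleotides.

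**Figure D4:**
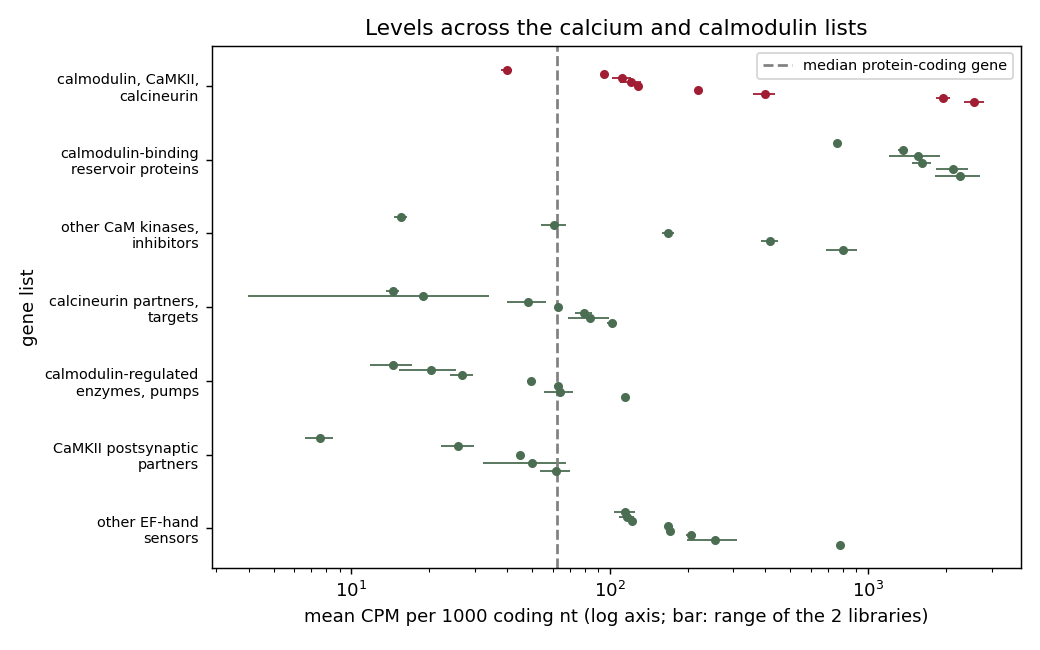
Mean CPM per 1000 coding nucleotides (log axis) of the 9 members (red) and of the tested genes of 6 related lists (green), with bars over the range of the 2 libraries and the median protein-coding gene as a dashed line. Calm3, at 2576, is the highest point, the reservoir genes lie from 758 to 2260, Camk2n1 and Vsnl1 lie at 795 and 776, and the postsynaptic partners of CaMKII lie below the median.

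Markers of neurons were present and those of other organs were at or near 0. The 6 neuronal markers held 0.637% and 0.640% of counts in replicates 1 and 2, all 4 excitatory and all 3 inhibitory markers passed the filter, and Alb, Ckm and Ins2, of liver, muscle and pancreas, had 0 counts in both libraries, while Myh6, of heart, had 3 and 0. Markers of other cells were present too: astrocyte markers held 0.199% and 0.180%, oligodendrocyte markers 0.0489% and 0.0482%, microglial markers 0.0148% and 0.0108%, and haemoglobin genes 0.307% and 0.290%. The part of each cell type in the levels of the 9 genes was not tested.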

How the data were processed

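The authors deposited 1 table of whole-number footprint counts per Ensembl transcript for 2 samples, not normalised. Per the submitters' processing notes, Trimmomatic 0.36, Bowtie2 2.2.6, SAMtools and the build GRCm38.p4 were used. The counting tool and filters are not given in the sources used here. Lengths of transcripts and their regions come from the same deposited table.

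The members and lists were chosen with earlier results of these data known. A further gene covered by the same rule is not reported here. Symbols are transcript names without their suffix, and all 9 matched the name table. For each gene the transcript with the highest summed count was kept (the longer in a tie). CPM used TMM factors (1.07 and 0.931) from edgeR 4.0.16 over the 5436 genes whose mean count reached 10. Log2 ratios are replicate 2 over replicate 1 of CPM + 1, which understates low genes, with SEs from counting error. With 1 library on each side, the exact binomial p-values set the difference in reads against counting error alone. Those of edgeR set it against a preset variation. Neither measures the spread between libraries or animals, whether or not the labels say that replicates came from separate animals. With 1 group of 2 samples no quasi-likelihood fit was possible. A 2-sided exact binomial test per gene was therefore run with scipy 1.17.1, adjusted by Benjamini-Hochberg at 0.05 over all genes tested. The simulated data used to check it were Poisson counts without variation beyond counting error, so the check says nothing about such variation. Intervals are 95%: Wilson for shares, exact Poisson for levels, Clopper-Pearson for ratios between libraries and a normal approximation on the log scale for ratios between genes. A count of 0 allows up to 3 counts. Named genes were the members, the 2 highest of each list, called genes and genes at 0, and the 2 genes nearest in level. Ppp3cc, Pcp4, the other genes of the NFAT family, Gap43, Camkv and the genes between Ppp3cb and Camk2g were added after their values were seen. Alternatives were other scalings (DESeq2 1.42.0 size factors among them), filters, isoforms, lengths, a preset coefficient of variation, a pseudocount of 0.1 and thinning. TMM factors were kept when the filter changed.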

Additional observations from a re-analysis of the deposited data

How the results depend on the processing

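No paired analysis was possible because the study has a single group. The 225 genes that differed between the libraries numbered 86 when the filter was raised to a mean of 50 counts, which leaves 764 genes, 131 with a preset coefficient of variation of 0.2, 144 with replicate 1 thinned to the depth of replicate 2, and 605 with isoforms summed, of which 383 were higher in replicate 2 against 217 of the 225. Without a count filter the number was 315, and with library totals 199. Leaving out a replicate gave a range of 0.756 to 0.930 for the calcineurin catalytic over regulatory density and of 10.6 to 13.1 for calmodulin over CaMKII. With isoforms summed these ratios were 1.65 and 4.44, with the longest coding isoform 0.681 and 14.4, and per whole transcript length 1.76 and 8.99. The shares of the CaMKII density were 17.2% for Camk2a, 54.9% for Camk2b, 16.7% for Camk2d and 11.2% for Camk2g with isoforms summed. Per transcript length they were 27.0%, 35.8%, 7.88% and 29.3%. With the longest coding isoform Camk2a held 39.2% and Camk2d 4.99%.

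Of 83 log2 ratios of members under the alternatives, 13 changed sign, none of them called. With library totals Calm2 had -0.029, Camk2d -0.070, Camk2g -0.13 and Ppp3ca -0.12, a scaling that lowers every ratio by about 0.20. With isoforms summed Camk2a had 0.064, Camk2d -0.46, Camk2g -0.012 and Ppp3ca -0.15. With the longest coding isoform Camk2a had 0.12, Camk2g -0.083 and Ppp3ca -0.55. With replicate 1 thinned Camk2b had 0.10 and Ppp3ca -0.27. The call of Calm3 with isoforms summed was the only one among the 83. Of 54 levels under other scalings, isoforms and lengths, 32 moved by less than the SD between replicates, and the other 22 moved with the isoform or length used. Leaving out 1 of 2 replicates cannot move a mean by more than their SD and was not counted. Where no cause is given it was not tested. The counts of 7 to 39 on the enzyme genes in replicate 2 limit what can be told apart.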
